A study of Mus musculus with 4 samples.

Results

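The CTCF peaks described here lie inside very long genes of adult mouse heart chromatin. A peak of the conservative list belongs to the set when its summit falls within the body of an autosomal protein-coding gene of at least 200 kb in the GENCODE M21 annotation of mm10 and more than 1 kb from any annotated transcription start site (TSS). Of the 54309 peaks in that list, 6113 met the rule, which is 11.3%. The annotation has 953 such long genes, of which 64 hold no peak of the set, and the peaks used for comparison are the 15888 peaks placed by the same TSS rule in the bodies of shorter autosomal protein-coding genes.

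CTCF ChIP-seq was done on whole hearts of female B6CASTF1/J mice aged 2 months, as 2 pools (G and H) of 2 heart biosamples each and 2 technical libraries per pool. The pools carry no treatment and there is no other group, so pools G and H serve only as repeats of the same measurement. The labels give both pools the same donor entry and do not say whether they came from different animals, so a spread between them may be technical. Whole heart holds muscle, vessel, connective tissue and blood cells, and a peak cannot be assigned to any of them. Read depth is unknown, and every interval below covers counting error over peaks, genes or motif copies only.

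CTCF is a zinc-finger protein that binds DNA through a long, non-palindromic motif, so each bound site has a strand. It halts the loop-extruding cohesin complex, and chromatin loops are most often anchored at motifs that point towards each other, called convergent; pairs that point apart are divergent and pairs on 1 strand are tandem. Very long genes are dominated by introns and tend to code for neuronal adhesion molecules, ion channels and scaffold proteins, and several of them are used by heart muscle.

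The sequences below show what a core looks like in these genes, because the strand results rest on reading it. Each line holds 40 bases of the GRCm38 (mm10) reference, read 5′ to 3′ along the strand of the host gene, with the 12-base CTCF core in capitals. The first 3 come from the strongest peaks of all long genes. The other 8 are the strongest core-bearing peaks in the 5′ and in the 3′ section of 4 heart muscle genes, each gene being cut into 3 sections of equal length,, chosen after their strands were known, to show convergent and tandem arrangements.

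Abr, chr11:76456407-76456446, minus strand: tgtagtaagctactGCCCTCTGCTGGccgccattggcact
Zmiz1, chr14:25565902-25565941, plus strand: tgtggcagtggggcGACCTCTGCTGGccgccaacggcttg
Iqsec1, chr6:90728832-90728871, minus strand: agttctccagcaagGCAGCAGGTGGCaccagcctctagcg
Cacna1c 5′ section, chr6:119104452-119104491, minus strand: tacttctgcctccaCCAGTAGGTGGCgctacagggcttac
Cacna1c 3′ section, chr6:118646827-118646866, minus strand: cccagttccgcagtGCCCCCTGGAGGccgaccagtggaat
Erbb4 5′ section, chr1:69086277-69086316, minus strand: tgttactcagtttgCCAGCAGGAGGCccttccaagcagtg
Erbb4 3′ section, chr1:68106671-68106710, minus strand: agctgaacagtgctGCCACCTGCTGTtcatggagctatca
Ryr2 5′ section, chr13:11927896-11927935, minus strand: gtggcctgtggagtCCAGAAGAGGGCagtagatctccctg
Ryr2 3′ section, chr13:11563811-11563850, minus strand: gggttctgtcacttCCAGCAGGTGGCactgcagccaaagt
Ank2 5′ section, chr3:127323071-127323110, minus strand: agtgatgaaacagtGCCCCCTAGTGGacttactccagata
Ank2 3′ section, chr3:126978944-126978983, minus strand: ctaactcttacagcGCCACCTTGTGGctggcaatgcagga

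A core that reads along the gene, as in the Cacna1c 5′ peak, is said to be on the gene strand; one that reads as its reverse complement, as in the Cacna1c 3′ peak, is on the opposite strand. In Cacna1c, which codes for the pore subunit of the cardiac L-type calcium channel, and in Erbb4, a neuregulin receptor, the printed pair is convergent across the gene. Both Ryr2 cores lie on the gene strand, and both Ank2 cores lie opposite it. Ryr2 is the channel that releases calcium from the sarcoplasmic reticulum, and Ank2 is an ankyrin that anchors membrane channels.

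Peaks were sparser in long genes than in shorter ones. Long gene bodies held 15.6 peaks per Mb of sequence more than 1 kb from a TSS (95% Poisson interval 15.2 to 16.0), against 31.5 per Mb in shorter gene bodies (31.0 to 32.0) and 18.7 per Mb over all such autosomal sequence. The ratio of long to shorter bodies was 0.495 in the conservative list, 0.492 from the peaks of pool G alone and 0.497 from those of pool H. Long genes made up 17.5% of the eligible autosomal bases and held 14.6% of the eligible peaks.

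Density was lower in each longer class. Genes under 20 kb held 38.7 peaks per Mb, genes of 20 to 50 kb held 34.5, genes of 50 to 100 kb held 31.6 and genes of 100 to 200 kb held 26.5. Within the long genes, density was 22.8 peaks per Mb in the 412 genes of 200 to 300 kb (21.9 to 23.8), 16.8 in the 323 genes of 300 to 500 kb (16.1 to 17.6), 11.4 in the 163 genes of 500 to 1000 kb (10.8 to 12.1) and 10.7 in the 55 genes of 1000 kb or more (9.93 to 11.4). The intervals of the last pair of classes overlap. In these classes a peak inside several genes counts in each of them. The longest class includes a pair of gene models that each span many other genes, Gm20388 with 71 whole coding genes inside it and Fgfr2 with 29; the other 53 genes of that class held 7.21 peaks per Mb (6.59 to 7.87).

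**Figure D1:**
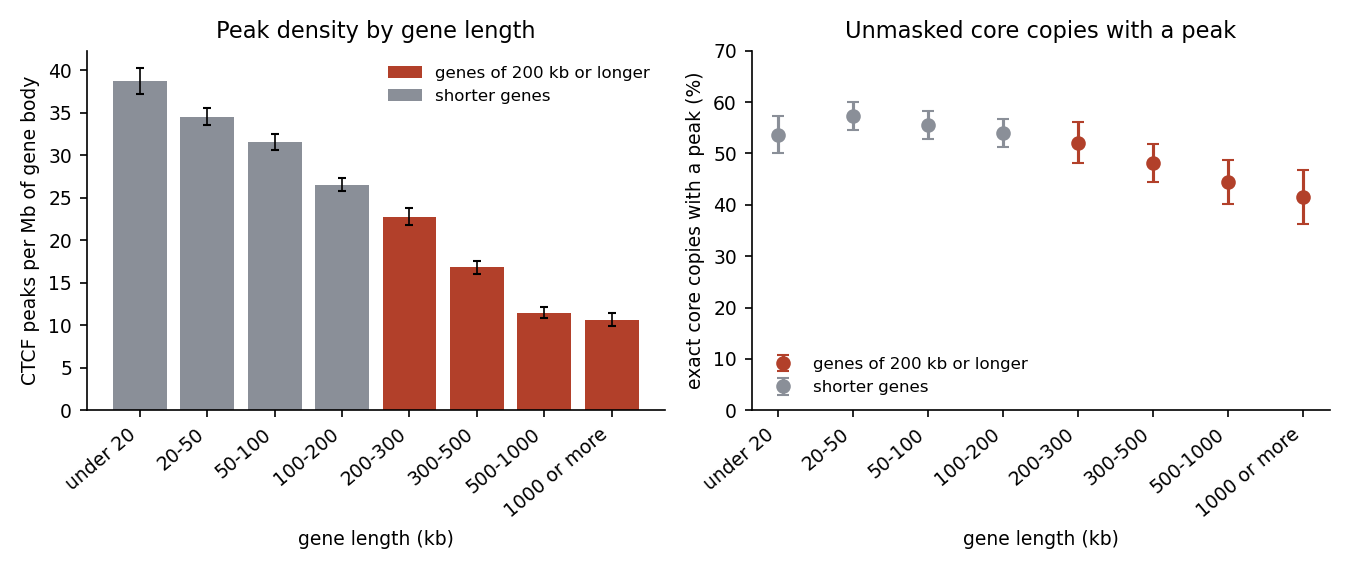
Left, CTCF peaks per Mb of gene body more than 1 kb from any TSS, by gene length in kb, for all autosomal protein-coding genes; bars are pooled densities and whiskers 95% Poisson intervals. Right, the percentage of exact, non-soft-masked core copies in these bodies that have a peak summit within 100 bp, with 95% binomial intervals. Density falls from class to class, to 10.7 peaks per Mb in the longest genes, and the share of copies with a peak is 41.5% there.

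The supply of motif copies fell with gene length as well. Exact copies of the 12-base core outside soft-masked (repeat) sequence numbered 5.49 per Mb in long gene bodies and 8.88 per Mb in shorter ones. A peak summit lay within 100 bp of 47.6% of the 2150 copies in long genes (45.5 to 49.7%), against 55.3% of the 4480 copies in shorter genes (53.8 to 56.8%). By class, this share was 52.1% at 200 to 300 kb, 48.1% at 300 to 500 kb, 44.5% at 500 to 1000 kb and 41.5% at 1000 kb or more. Copies in soft-masked sequence numbered 14.4 per Mb in long gene bodies and 41.8 per Mb in shorter ones. Of these, 957 of 5636 in long genes (16.0 to 18.0%) and 3811 of 21074 in shorter genes (17.6 to 18.6%) had a peak. No test was run on these shares.

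Base composition moved with density across the 953 genes. Spearman's correlation of density was 0.65 with the GC percentage of the gene and −0.31 with gene length, given as descriptions because neighbouring genes share their isochore. With the long genes cut into 5 groups of equal number by GC, density from the most AT-rich to the most GC-rich group was 5.39, 10.4, 15.3, 22.3 and 31.8 peaks per Mb. Within each of those groups the correlation with length stayed negative, between −0.30 and −0.11. The part of GC content in the decline with length was not tested.

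Single genes spread widely around these means. The median long gene held 14.6 peaks per Mb, the middle 50% lay between 6.85 and 25.4, and the top 10% began at 39.8. No peak of the set lay in 64 of the 953 genes (6.72%, exact binomial interval 5.21 to 8.50%). The share was 10.9% for genes of 100 to 200 kb and 21.6% for genes of 50 to 100 kb. Shorter genes offer less sequence for a peak, and these shares were not compared at equal length. Peaks within 1 kb of a TSS are left out, so such a gene may still hold one there. The 64 genes include the overlapping models Pcdha1 to Pcdha4. Among the 915 genes that overlap no other long gene, 57 had none. In the median long gene the longest stretch without a peak was 158 kb, and in 53 genes it reached 500 kb or more.

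The densest long genes had varied roles. Fry, a large scaffold protein of morphogenesis, had 38 peaks over its 379 kb, or 110 per Mb, with 40 peaks in pool G alone and 33 in pool H. Sh3pxd2a, the podosome scaffold Tks5, had 21 peaks and 107 per Mb. Zmiz1, a transcriptional coregulator, had 88.5 per Mb, Ablim1, an actin-binding LIM protein, had 84.2, and Rbfox2, a splicing factor active in heart, had 82.3. Pitpnc1, a phosphatidylinositol transfer protein, had 76.2 per Mb, Dysf, the membrane-repair protein dysferlin of muscle, had 74.5, and Cacna1a, the pore of the P/Q-type calcium channel, had 71.5. These 8 genes are 202 to 379 kb long, and each had between 11 and 40 peaks in either pool list.

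The longest genes were sparse, apart from the composite models. Ptprd, a receptor phosphatase of synapses, spans 2271 kb and had 9 peaks (4.03 per Mb). Cntnap2, a neurexin-like adhesion protein, had 7 peaks in 2245 kb, and 1543 kb of it, the longest stretch in any long gene, held none. Lsamp, an adhesion protein, had 13 peaks, Lrp1b, a giant lipoprotein-receptor relative, had 5, Macrod2, a mono-ADP-ribosyl hydrolase, had 7, and Dlg2, a synaptic scaffold, had 13. Csmd1, a complement-regulating membrane protein, had 10 and the neurexin Nrxn3 had 14. Across these 8 genes density ranged from 2.46 per Mb in Lrp1b to 8.81 per Mb in Nrxn3, below the median long gene in all of them. Gm20388 and Fgfr2, the longest models, had 215 and 93 peaks, at 55.9 and 34.4 per Mb; in the Gm20388 model these sit among the 71 other genes that it spans.

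Of the 8 longest genes without a peak of the set, 4 had none in either pool list more than 1 kb from a TSS. Naaladl2, a peptidase relative, spans 1346 kb, Lrrtm4, a synaptic adhesion protein, 791 kb, Mgat4c, a glycosyltransferase relative, 710.0 kb, and Cntnap5c, a relative of Cntnap2, 641 kb. Nrg3, a neuregulin, had 1 peak in the pool H list, Malrd1 had 2 in the pool G list, the kainate receptor subunit Grik2 had 1 in the pool G list and Fstl5 had 1 in each. Exact non-soft-masked core copies were few in these genes, from 0 in Malrd1 to 2 in Naaladl2, Nrg3, Lrrtm4 and Grik2, and their GC content ran from 35.6% in Grik2 to 38.9% in Cntnap5c.

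Of the 38 genes on the heart muscle list, 30 reached 200 kb. Expression was not measured here, so the list does not show in which heart cells a gene is active. None of the 30 was without a peak, against 6.72% of all long genes. The median density of the 30 was 19.0 per Mb, against 14.6 per Mb over all 953 long genes, and 17 of the 30 lay above that overall median. Pooled over the list, density was 16.3 per Mb (14.4 to 18.3), with 16.3 from pool G alone and 15.5 from pool H. The same pooled value over all long genes was 15.6, inside that interval, with 15.6 from pool G and 14.5 from pool H. The list has a GC median of 40.4%, against 41.6% over all long genes.

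Among the denser genes of the list, Pde3a, a cyclic nucleotide phosphodiesterase, had 14 peaks and 55.5 per Mb. Rora, a nuclear receptor, had 38.6 per Mb, Lmo7 32.7, titin (Ttn), the sarcomere spring, 32.0, the actin-associated palladin (Palld) 31.7 and Ank2 30.4. The potassium channel Kcnq1 had 27.3 per Mb, the sarcomere formin Fhod3 26.3, Sorbs2 24.9, utrophin (Utrn) 23.7, the anchoring protein Akap6 22.3 and dystrobrevin (Dtna) 21.3. Ryr2 held 11 peaks at 20.8 per Mb, and Cacna1c 12 peaks at 20.5 per Mb. The calcium channel subunit Cacnb2 had 17.5 per Mb and the phosphodiesterase Pde4d 15.7.

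The other genes of the heart muscle list lay below these. The kinase Camk2d had 13.9 per Mb from 3 peaks, but 6 peaks in pool G alone and 1 in pool H. The kinase Prkg1 had 13.5 per Mb, the calcium channel subunit Cacna2d1 11.7, the sodium-calcium exchanger Slc8a1 11.2, Fgf12 8.59, triadin (Trdn) 8.05 and Pcdh7 7.85. Laminin alpha 2 (Lama2) and alpha-T-catenin (Ctnna3) each had 6.42 per Mb, neuregulin 1 (Nrg1) 5.68, delta-sarcoglycan (Sgcd) 5.55, the protease corin (Corin) 5.29 from a single peak, and Erbb4 3.79.

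Within Ryr2 the 11 peaks were spread over the whole gene, and all lay in introns. The strongest lay at 98.1% of the gene length from the 5′ end, and the next, with a signal (the caller's score) of 434 at 62.0%, carries a core on the opposite strand. The 3 peaks nearest to the 5′ end, at 1.08, 6.56 and 7.61% of the length, had signals of 116, 112 and 96.8 and no core. In titin, 2 of the 8 peaks were exonic, one at 96.0% of the length with a signal of 378 and one near the middle with a signal of 316. In Sgcd, the 3 core-bearing peaks, at 9.01, 30.3 and 55.0% of the length, were all on the gene strand. In Erbb4, 936 kb between the 2 peaks at its 3′ end and the 2 at its 5′ end held none.

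Other lists differed in level. Of 33 vascular and fibroblast genes, 20 were long, and their median was 25.6 peaks per Mb. The densest were the kinase Prkce (46.0) and the transcription factor Tcf4 (41.8), and the least dense the zinc-finger protein Bnc2 (0) and the transcription factor Dach1 (10.6). All 45 neuronal synapse and adhesion genes listed were long, with a median of 5.21 peaks per Mb, and 3 of them were above the median of all long genes. Kirrel3 (20.5) and Dpp6 (15.8) were the densest of them, and Grik2 and Cntn6 had no peak. Of 15 common fragile site symbols, 12 were long, with a median of 6.30; Wwox (18.9) was among the densest and Naaladl2 (0) and Fhit (0.631) the least dense. Some genes are in both of the last lists.

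The lists also differed in length and base composition. The median gene was 903 kb with 38.8% GC in the neuronal list, 1412 kb with 38.9% GC in the fragile site list, 395 kb with 42.3% GC in the vascular and fibroblast list and 432 kb in the heart muscle list. A peak lay at 58.1% of 74 exact non-soft-masked core copies in heart muscle genes (46.1 to 69.5%), at 48.7% of 78 in vascular and fibroblast genes (37.2 to 60.3%), at 37.9% of 169 in neuronal genes (30.5 to 45.6%) and at 36.4% of 55 in fragile site genes (23.8 to 50.4%). Over all long genes the share was 47.6%. The lists were not tested against each other.

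**Figure D2:**
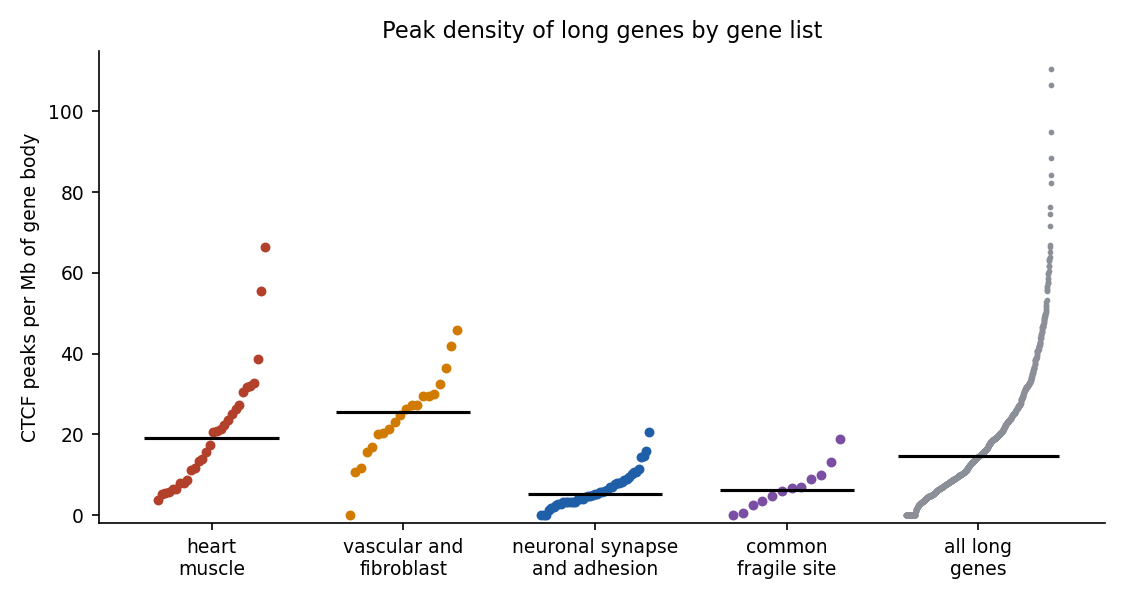
CTCF peaks per Mb of gene body for each long gene of 4 lists and for all 953 long genes; each point is a gene, sorted by density within its list, and the black line is the median. Medians are 19.0 for heart muscle, 25.6 for vascular and fibroblast, 5.21 for neuronal synapse and adhesion, 6.30 for common fragile site and 14.6 for all long genes.

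Peak strength in long genes was similar to that elsewhere, with no test made. The median signal was 254 in long genes (middle 50% from 129 to 535), 270 in shorter gene bodies and 286 over the whole list. Of the 6113 peaks, 91.3% shared at least 1 base with a peak found in pool G alone and 89.1% with one found in pool H alone. A candidate summit within 100 bp was found in both pools for 6064 of them. The conservative list was itself derived from both pools and thresholded by IDR, a score of reproducibility. Agreement between the pools at its peaks is therefore partly set by how they were chosen. The median ratio of the pool G to the pool H signal was 1.25, and 9 peaks were more than 2-fold away from it.

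The 8 strongest peaks in long genes had signals of 836 to 863, and all lay in introns and carried a core. The peak in Abr, a regulator of small GTPases, had a signal of 863 from both pools, 456 in pool G and 409 in pool H. Zmiz1 followed with 862 (453 and 415 in pools G and H), and Iqsec1, an exchange factor for Arf GTPases, also with 862 (455 and 416). The others were in Rasgef1b (859), the cadherin Cdh23 (855), the Gm20388 model (854 and 851) and Ctnna3 (836). Their cores were on the gene strand in 3 peaks and on the opposite strand in 5.

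Nearly all peaks of the set were intronic, as the sequence itself is. An exon of a long host gene held 177 summits, or 2.90% (2.49 to 3.35%), while such exons covered 1.98% of the eligible bases. Exons of any gene held 3.98% of summits and covered 2.74% of the bases.

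A core with at most 1 mismatch within 100 bp of the summit was found in 68.0% of peaks in long genes (4158 peaks) and in 72.0% of peaks in shorter genes (11445 peaks). The difference of −4.02 percentage points passed Fisher's exact test (two-sided, Benjamini-Hochberg adjusted p = 1.97e-08 over 11 tests). The direction turned when soft-masked sequence was left out of the search: 46.6% of long-gene peaks then had a core, against 41.6% of shorter-gene peaks (Fisher's exact test, unadjusted p = 1.63e-11). Windows of the same width centred 200 bp to one side of the long-gene summits held such a core in 3.14% of cases. In long genes, peaks with a core had a median signal of 318 and those without one 176.

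Position along the gene was uneven at the 3′ end. With each gene cut into 10 equal bins in the direction of transcription, bin 1 being the 5′ end, density was 16.8, 14.7, 15.1, 13.9, 14.7, 13.8, 13.6, 15.6, 17.1 and 21.0 peaks per Mb. Bin 10 held 21.0 per Mb (19.6 to 22.5) and bin 1 held 16.8 (15.5 to 18.1), a ratio of 1.25. From the pool G peaks the ratio was 1.21, and from the pool H peaks 1.25. It was 1.69 among peaks at or above the median signal, a setting added after seeing the data.

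The strand of the core changed along the gene. Over all positions, 2041 of 4152 cores (49.2%) were on the gene strand, a share that did not pass the exact binomial test against equal shares (two-sided, adjusted p = 0.419). In shorter genes the share was 49.6% of 11313 cores, and the two-sided Fisher exact test of the difference gave an adjusted p of 0.687. Split by position, 56.9% of 1321 cores in the 5′ section were on the gene strand (54.2 to 59.6%, adjusted p = 1.46e-06, exact binomial test), 50.4% of 1242 in the middle (47.6 to 53.2%, adjusted p = 0.798) and 41.7% of 1589 in the 3′ section (39.3 to 44.2%, adjusted p = 2.46e-10). The gap of 15.2 percentage points between the 5′ and the 3′ section had an adjusted p of 3.39e-15 by the two-sided Fisher exact test. Peaks are not replicates, and these tests treat each core as independent.

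Both pools showed the same gradient. In the 5′ section the share was 56.6% from pool G alone and 57.2% from pool H alone, and in the 3′ section it was 42.4% from pool G and 41.3% from pool H. With each gene counted once by the strand of most of its cores, 61.2% of 502 genes had mostly gene-strand cores in the 5′ section (unadjusted p = 6.56e-07, exact binomial test) and 36.9% of 542 genes in the 3′ section (p = 1.13e-09). By bin the share was 64.4% in bin 1 (59.5 to 69.0%) and 36.8% in bin 10 (32.9 to 40.9%), with values between 42.9% and 55.1% in the 8 bins between them.

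Counted per Mb, the 2 strands differed at opposite ends. Cores on the gene strand were densest in bin 1, at 6.85 per Mb (6.05 to 7.73), and lay between 4.04 and 5.45 per Mb in every other bin. Cores on the opposite strand were sparsest in bin 1, at 3.79 per Mb (3.20 to 4.45), and densest in bin 10, at 9.33 per Mb (8.40 to 10.3). In bin 10 the gene-strand cores stood at 5.44 per Mb (4.73 to 6.22). The strength of the peaks also varied: the median signal of core-bearing peaks was 394 in bin 10 and 237 in bin 1. In the 3′ section, opposite-strand cores had a median signal of 363 and gene-strand cores 323; in the 5′ section these were 289.6 and 299.

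**Figure D3:**
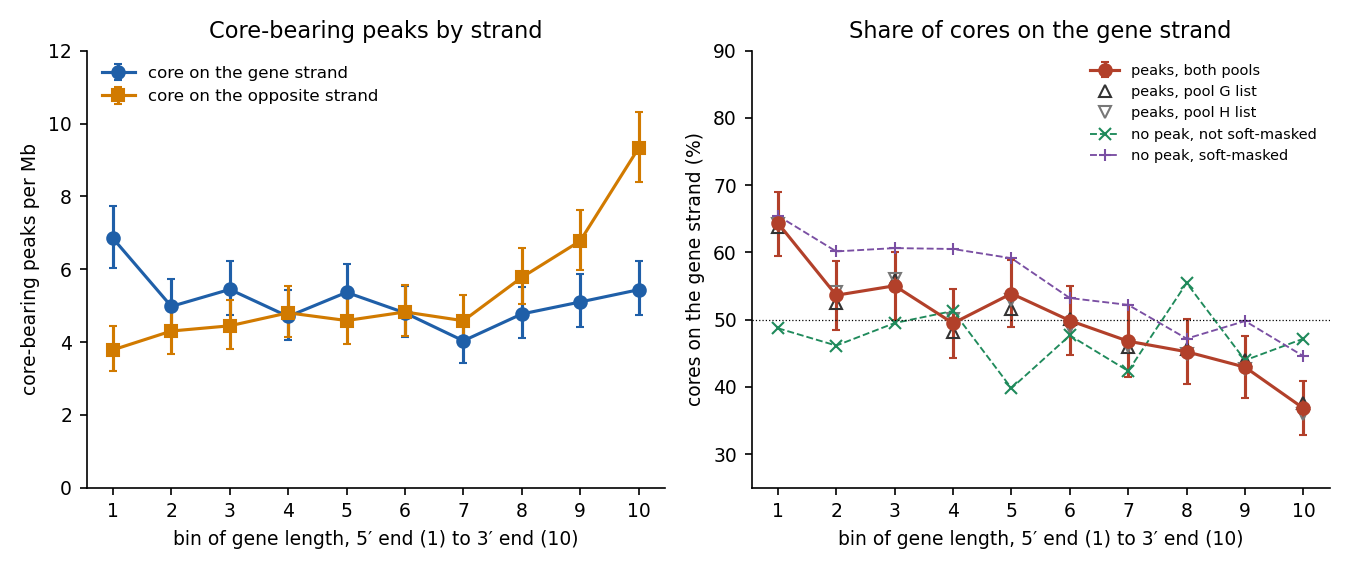
Left, core-bearing peaks per Mb in each of 10 equal bins of the 953 long genes, from the 5′ end (bin 1) to the 3′ end (bin 10), split by the strand of the core against the gene, with 95% Poisson intervals. Right, the percentage of cores on the gene strand, for peaks of the conservative list (95% binomial intervals), of each pool list, and for exact core copies without a peak. Cores at peaks may hold 1 mismatch. The share for peaks is 64.4% in bin 1 and 36.8% in bin 10, and that of non-soft-masked copies without a peak is 48.7% and 47.2%.

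Copies of the core that carried no peak served as a measured background. Outside soft-masked sequence, cores at peaks were on the gene strand in 55.5% of 856 cases in the 5′ section (52.1 to 58.9%), 49.8% of 863 in the middle and 40.1% of 1126 in the 3′ section (37.3 to 43.1%). Exact copies without a peak, also outside soft-masked sequence, showed 47.9% of 353 (42.6 to 53.2%), 44.6% of 370 and 49.0% of 404 (44.0 to 54.0%) in the same order. Soft-masked copies without a peak did change along the gene, with 62.6% of 1638 in the 5′ section, 56.0% of 1406 in the middle and 47.5% of 1635 in the 3′ section. Soft-masked copies thus changed strand along the gene without a peak, by 15.1 points between the outer sections, while the non-soft-masked copies without a peak differed by less than their intervals. The part of repeats in the strands of soft-masked bound cores was not tested.

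The shares were most unequal close to the gene ends. Within 10 kb of the 5′ end, 72.9% of 107 cores were on the gene strand (63.4 to 81.0%). The share was 64.2% at 10 to 20 kb, 63.6% at 20 to 40 kb, 55.2% at 40 to 80 kb, 51.2% at 80 to 160 kb and 44.6% of 2504 cores further in. From the 3′ end, it was 34.4% of 151 cores within 10 kb (26.9 to 42.6%), 32.1% at 10 to 20 kb, 36.4% at 20 to 40 kb, 43.0% at 40 to 80 kb, 50.2% at 80 to 160 kb and 54.0% of 2232 cores beyond that. Just outside the genes, within 50 kb and in no coding gene, 61.8% of 565 upstream cores (57.6 to 65.8%) and 50.7% of 475 downstream cores (46.1 to 55.3%) were on the gene strand.

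**Figure D4:**
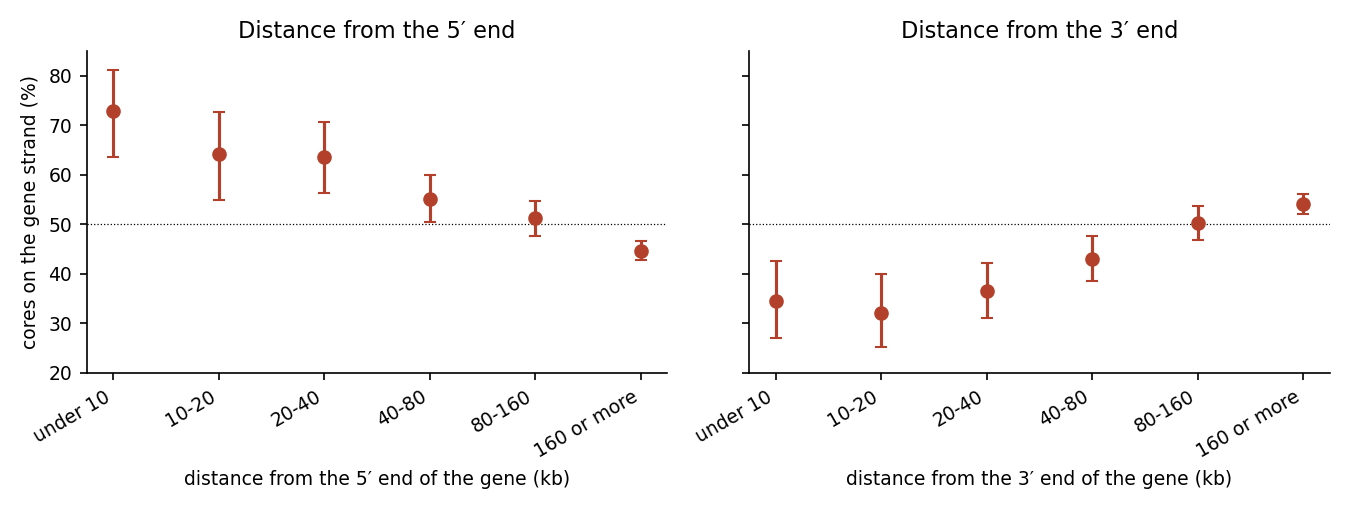
The percentage of cores at peaks that lie on the gene strand, by distance in kb from the 5′ end (left) and from the 3′ end (right) of the long gene; points are pooled shares, whiskers 95% binomial intervals and the dotted line 50%. The share is 72.9% within 10 kb of the 5′ end and 34.4% within 10 kb of the 3′ end. The most distant bin of each panel includes cores near the other end.

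The gradient varied with gene length. The 5′ section had a gene-strand share of 60.8% and the 3′ section one of 36.4% in genes of 200 to 300 kb, a gap of 24.4 points. The gap was 14.6 points at 300 to 500 kb, 6.33 at 500 to 1000 kb and 6.29 at 1000 kb or more. At 500 to 1000 kb the 5′ and 3′ shares were 55.7% (49.5 to 61.8%) and 49.4% (43.9 to 54.9%). At 1000 kb or more they were 49.7% (42.6 to 56.9%) and 43.5% (36.7 to 50.4%). In both of these classes the intervals overlap and include 50%, so a gradient is not shown there. The longest class includes the composite models Gm20388, with 76 cores on the gene strand and 70 opposite, and Fgfr2, with 26 and 31. The strand shares of that class were not computed without them. The gradient was not particular to genes of 200 kb or longer. Genes of 100 to 200 kb had a gap of 21.9 points (60.5% and 38.6%), genes of 50 to 100 kb 11.4, genes of 20 to 50 kb 5.74 and genes under 20 kb −3.81. Whole-gene shares by class were 48.5, 48.8, 51.8 and 47.6% from 200 to 300 kb to the longest class, and none passed the exact binomial test (adjusted p = 0.419 to 0.477). The differences in gap between classes were not tested. In the 30 heart muscle genes the sections did not differ beyond their intervals: 47.6% of 63 in the 5′ section (34.9 to 60.6%), 48.3% of 58 in the middle and 47.8% of 67 in the 3′ section (35.4 to 60.3%). These wide intervals also hold the 5′ and 3′ shares of all long genes, 56.9% and 41.7%. So few cores cannot show whether the gradient is present or absent in heart muscle genes.

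Neighbouring cores inside a long gene were arranged much as on the autosomes at large. Of 3306 neighbouring pairs within long genes, 23.8% were convergent (22.3 to 25.3%), 22.6% divergent and 53.6% tandem. Among all 34837 autosomal neighbours these shares were 24.1, 24.1 and 51.9%. The autosomal neighbours include peaks within 1 kb of a TSS, which the long-gene pairs leave out. Some long-gene pairs may therefore not be neighbours in the autosomal set. The orientation of the long-gene pairs varied with distance. Convergent pairs made up 17.3% at under 10 kb, 22.3% at 10 to 30 kb, 24.2% at 30 to 100 kb, 33.7% at 100 to 300 kb and 35.6% of the 87 pairs at 300 kb or more. Divergent pairs made up 26.7, 24.7, 21.7, 16.3 and 11.5% over the same distances. Among all autosomal neighbours convergent pairs ran from 19.3 to 33.4% and divergent pairs from 26.3 to 16.6% between the shortest and the longest distances.

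The outermost cores of each gene were compared in the same way, with no test. In the 715 long genes with at least 2 cores, the first and the last core faced each other in 27.8% (24.6 to 31.3%) and pointed apart in 22.5% (19.5 to 25.8%). The convergent and divergent shares were 30.6% and 19.8% in genes of 200 to 300 kb, 23.9% and 26.7% at 300 to 500 kb, 32.6% and 22.0% at 500 to 1000 kb, and 19.2% each in the 52 genes of 1000 kb or more.

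**Figure D5:**
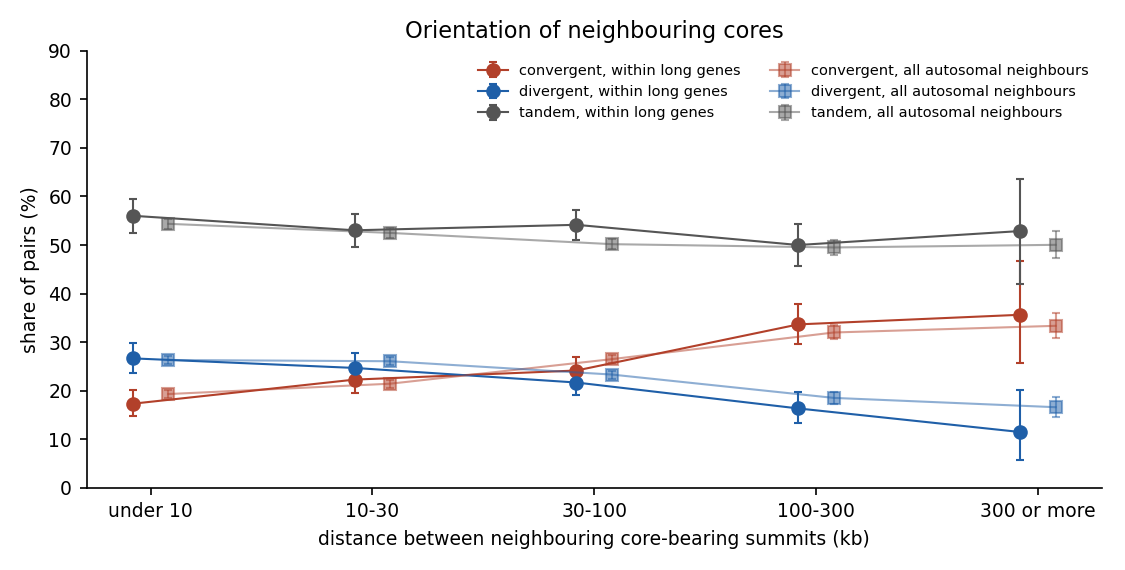
The percentage of neighbouring core-bearing summits in each orientation, by their distance in kb, for pairs within long genes (solid circles) and for all autosomal neighbours (pale squares), with 95% binomial intervals. In long genes convergent pairs make up 17.3% under 10 kb and 35.6% at 300 kb or more, and divergent pairs 26.7% and 11.5%.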

How the data were processed

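The authors deposited peak lists on mm10 per the labels, made from filtered alignments of pools G and H with a control alignment, per the deposited readme texts. The sources used here name neither aligner nor caller. The authors deposited 2 scores per peak: the caller's signal, without a stated unit, compared within a list except for the pool G to pool H ratio of matched peaks, which depth can shift, and a scaled IDR, whose minimum was 540 (IDR 0.05). Read depth is unknown.

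Summits were the start plus the summit offset. Members, gene lists and tests were chosen with earlier results of these data known. Eligible bases left out runs of N and sequence within 1 kb of a TSS. The best match to the 12-base core with at most 1 mismatch within 100 bp gave its strand; 3 peaks with equal matches on both strands and 3 in genes on both strands were left out of strand counts. A core in several long genes takes its position in the shortest. Named genes were the 10 longest, the 8 densest with at least 5 peaks, the 8 longest without a peak, the hosts of the 8 strongest peaks and all long heart muscle genes; of genes overlapping on 1 strand the longest was named. Other lists were summarised with their densest and least dense pairs. Values of some genes that these rules name are not reported here. Exact binomial and Fisher tests were adjusted by Benjamini-Hochberg over 11 tests. Scripts, tested on simulated data, ran under Python 3.11.15 with scipy 1.17.1 for tests, matplotlib 3.10.9 for figures, and numpy 2.4.6 and pandas 2.3.3 for tables. Sequences came from GRCm38.p6 and genes from GENCODE M21.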

Additional observations from a re-analysis of the deposited data

How the results depend on the processing

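Of 129 recomputed values, 98 stayed the same by the measure used for their kind: tested shares kept their direction and their side of the threshold, counts stayed within 1.5 times, and other values moved by less than 1 SD between the pools. Within that factor, peaks ranged from 4961 to 7818 and genes without a peak from 47 to 84. The gene-strand shares in the 5′ and the 3′ section kept theirs under all 15 alternatives each, from 54.7 to 61.2% and from 36.9 to 44.7%. The core share turned round relative to shorter genes without soft-masked sequence (46.6%, against 41.6% in shorter genes); with exact cores it was 32.2%, against 39.1%. The whole-gene strand share passed an unadjusted threshold of 0.05 in genes of at least 150 kb (48.4%), for cores outside soft-masked sequence (47.7%) and for peaks at or above the median signal (47.7%).

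Density was 18.2 peaks per Mb in the other list of both pools, 16.9 for genes of at least 150 kb, 13.3 for genes of at least 300 kb and 14.3 over 5 kb from any TSS, and 14.5 to 15.5 in the single-pool lists. The ratio to shorter genes was 0.518 at 150 kb, 0.440 at 300 kb, 0.506 over 5 kb from a TSS, 0.479 for genes overlapping no other long gene, 0.554 over the whole gene length, 0.477 for models holding no other whole gene and 0.479 for genes as long in RefSeq; the last 2 settings were chosen after seeing the data. At 300 kb, 3967 peaks and 35 genes without a peak were left, and at 150 kb 114 genes had none; the single-pool lists gave 5671 to 6092 peaks and 57 to 61 empty genes.

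The last-to-first ratio was 1.15 in the other list of both pools, 1.43 over 5 kb from a TSS, 1.32 for models holding no other gene, 1.34 for genes as long in RefSeq, 1.69 for peaks at or above the median signal and 1.21 to 1.25 by pool. The convergent share was 23.6% at an IDR of 0.01, 23.6% at 300 kb, 25.7% with exact cores, 22.8% outside soft-masked sequence, 23.5% for genes as long in RefSeq and 23.5 to 23.7% by pool. The cause of these shifts was not tested. No paired analysis was possible because each pool has a single peak list and its own technical libraries. Unknown read depth limits statements about missing peaks.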
